A study of Mus musculus with 9 samples.

Results

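The genes described here are those of 66cl4 cells, a mouse triple-negative mammary carcinoma line, whose messenger RNA was lower with a hairpin against Eya3 and, as a ratio, less so when IKK2-SE was added. They were chosen on the values themselves. CPM, the reads of a gene per 1000000 reads counted in its library, were averaged over each group. A gene was kept with at least 2 CPM in scramble cells, at most 0.6 of that in knockdown cells, and a level in IKK2-SE cells of at least 1.5 times knockdown and at most 2 times scramble. Of 52208 genes in the table, 187 passed, and 53 of them were then left out by name: 25 with Gm-number or Rik names and 28 whose names start like chemokines, interleukins, Nfkb, Tlr, Traf, matrix or guidance genes, among others. The 134 genes left are 14.7% of the 910 genes with kept names that met the scramble and knockdown thresholds.

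There were 9 libraries in 3 groups of 3 biological replicates, at 63601403 to 81534534 counts each. IKK2-SE cells carried an shEya3 hairpin together with IKK2-SE, a version of the kinase IKK2 that is always switched on. Knockdown cells carried the shEya3 hairpin and an empty vector, and scramble cells a scramble hairpin and the empty vector. All were grown in puromycin after the hairpin was introduced and selected on mCherry carried with the vector, and the labels do not say whether a group is 1 clone or whether replicates came from separate transductions. The p-values below therefore measure the spread between these cultures. The hairpin is KD2 in the sample titles and KD3 in the table's column names. IKK2-SE was not put into scramble cells, so a return of what the hairpin changed and an effect that IKK2-SE would have in any 66cl4 cell cannot be told apart, and neither can fewer cells with a transcript and less of it per cell.

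NF-kB transcription factors are held in the cytoplasm by IkB proteins until the kinase IKK2 phosphorylates these, which marks them for destruction and lets NF-kB enter the nucleus. There it raises genes of inflammation and innate immunity, among them its own inhibitors. Eya3 is a transcriptional coactivator of sine oculis homeobox factors that also has phosphatase activity. Eya3 itself had 29.1, 25.8 and 24.9 CPM in the IKK2-SE libraries, 24.9, 24.8 and 23.9 CPM in the knockdown libraries and 63.99, 64.9 and 62.0 CPM in the scramble libraries. It fell in knockdown cells by 1.33 ± 0.06 on the log2 scale against scramble (estimate ± SE, edgeR adjusted p = 5.97e-12), and differed by 0.09 ± 0.06 between IKK2-SE and knockdown cells (edgeR adjusted p = 0.406). The line expressed the keratin gene Krt8, at 1074 CPM with IKK2-SE, 1306 CPM in knockdown and 638 CPM in scramble cells. The mesenchymal gene Vim was at 2697, 3744 and 2810 CPM in the same groups. The epithelial genes Epcam and Cdh1 were under 0.1 CPM in all 3. Of 7 mammary epithelial markers 5 were tested, and 2 were higher and 2 lower in knockdown than in scramble cells. Of 4 mesenchymal markers 3 were higher and 1 lower. Over all tested genes 27.7% were higher and 29.9% lower.

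Promoters of 89 of the 134 genes were in the RefSeq table of mouse promoters (GRCm38.p6), which gives 250 bases before and 50 after a gene's start. The 250 bases before the start were searched on both strands for the kB consensus, the site that NF-kB binds. The windows of 6 of the 89 genes (6.74%) held a match, against 587 of 10751 tested genes (5.46%) and 1204 of all 27025 genes with a window (4.46%). The 6 were Neurl3, Tmem176b, Tmem176a, Castor2, Elf3 and Mfsd13a. Other motifs were TCAGGTT, the MEF3 site of sine oculis factors, in 4 windows (4.49%, against 3.61% of tested genes), TGANTCA for AP-1 in 6 (6.74%, against 6.04%), and the core of the interferon response element (GAAA, any 2 bases, GAAA) in 6 (6.74%, against 3.23%). The E-box CACGTG was in 8 (8.99%, against 9.45%) and TATAAA in 10 (11.2%, against 8.48%). Motifs that read alike on both strands were counted once per window.

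Windows are shown for 5 genes that differ in how far they returned with IKK2-SE, 5′ to 3′ on the gene's strand, with the named match in capitals. Neurl3 (chr1:36273426-36273675, minus strand), Tmem176b (chr6:48841375-48841624, minus strand) and Elf3 (chr1:135258473-135258722, minus strand) have the kB consensus in capitals. In Tmem176b it reads on the gene's strand. In Neurl3 and Elf3 it reads on the opposite strand, so the capitals there are its reverse complement. Slpi (chr2:164356508-164356757, minus strand) has the MEF3 letters and no kB match in this window, and Trim30d (chr7:104507850-104508099, minus strand) has the interferon response letters on the opposite strand.
Neurl3: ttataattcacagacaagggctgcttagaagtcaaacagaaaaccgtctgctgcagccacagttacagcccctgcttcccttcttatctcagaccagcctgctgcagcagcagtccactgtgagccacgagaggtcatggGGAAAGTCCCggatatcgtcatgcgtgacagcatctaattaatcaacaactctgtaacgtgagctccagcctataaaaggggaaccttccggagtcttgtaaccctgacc
Tmem176b: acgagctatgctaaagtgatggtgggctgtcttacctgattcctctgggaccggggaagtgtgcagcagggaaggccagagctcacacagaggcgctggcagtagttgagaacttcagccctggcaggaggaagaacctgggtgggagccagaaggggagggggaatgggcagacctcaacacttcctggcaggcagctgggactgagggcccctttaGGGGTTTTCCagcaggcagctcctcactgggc
Elf3: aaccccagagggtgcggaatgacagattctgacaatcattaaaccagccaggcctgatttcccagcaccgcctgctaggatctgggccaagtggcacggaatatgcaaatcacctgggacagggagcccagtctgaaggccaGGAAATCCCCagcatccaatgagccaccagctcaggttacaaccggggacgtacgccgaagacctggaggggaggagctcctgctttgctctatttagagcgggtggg
Slpi: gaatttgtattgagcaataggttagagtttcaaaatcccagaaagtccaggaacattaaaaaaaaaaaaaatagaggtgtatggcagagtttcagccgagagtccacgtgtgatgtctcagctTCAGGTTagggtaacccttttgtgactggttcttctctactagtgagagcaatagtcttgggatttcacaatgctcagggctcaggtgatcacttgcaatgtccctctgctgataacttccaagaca
Trim30d: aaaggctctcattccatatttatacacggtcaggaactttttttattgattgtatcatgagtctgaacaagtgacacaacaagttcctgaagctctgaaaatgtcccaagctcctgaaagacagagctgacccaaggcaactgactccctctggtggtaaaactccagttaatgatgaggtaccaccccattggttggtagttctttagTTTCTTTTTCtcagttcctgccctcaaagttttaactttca
The match of Neurl3 began 110 bases before the start, that of Elf3 108 bases, that of Tmem176b 32 bases, that of Slpi 127 bases and that of Trim30d 41 bases. The match at chr6:48841397-48841406 lies in the windows of both Tmem176b and Tmem176a, which are transcribed away from each other with overlapping ends. Elf3 also held the MEF3 letters, which began 77 bases before its start.

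How far a gene came back was expressed as the share of the loss regained, the difference between IKK2-SE and knockdown means over that between scramble and knockdown means. Its median over the 134 genes was 10.8%, with quartiles of 2.51% and 39.3%. In 52 genes it was under 5%, in 13 from 5 to 10%, in 23 from 10 to 25%, in 20 from 25 to 50%, in 16 from 50 to 75%, in 3 from 75 to 100% and in 7 at 100% or more. The label under which the set was proposed, genes lost with knockdown and regained with IKK2-SE, thus goes against the values of most of its genes: 108 of 134 regained less than 50% of the loss and 65 less than 10%. The median level was 22.2% of scramble in IKK2-SE cells and 8.01% in knockdown cells. Taken singly, the 3 IKK2-SE libraries gave median shares of 10.0%, 10.5% and 9.47%, with 28, 17 and 25 genes at 50% or more.

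**Figure D1:**
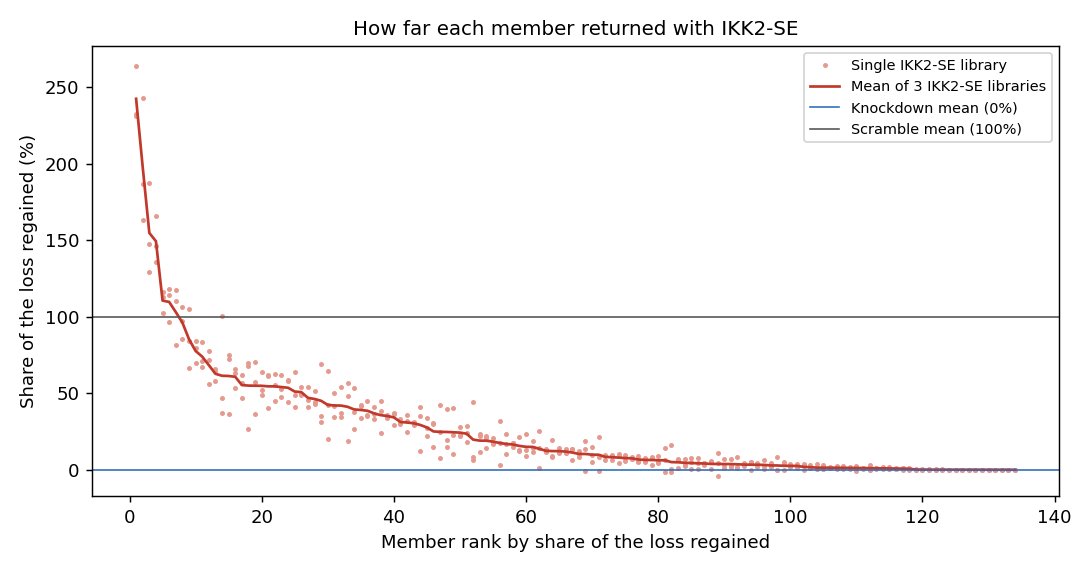
Share of the loss regained (y axis, %) for the 134 genes in order of their mean share (x axis, rank). Points are single IKK2-SE libraries, the line is the mean of the 3, and the horizontal lines mark the knockdown mean at 0% and the scramble mean at 100%. The line is above 100% for 7 genes and under 10% for 65.

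Genes just inside and just outside each threshold are given first. At the scramble threshold of 2 CPM, Calr3 stood inside with a mean of 2.001 CPM and Mettl7a1 outside with 1.999 CPM. At 0.6 of scramble, Lrig1 was inside with a ratio of 0.591 and Irgm2, an interferon-inducible GTPase, outside with 0.603. At 1.5 times knockdown, Syt3 was inside with 1.504 and Tha1 outside with 1.496. At 2 times scramble, Slpi was inside with 1.87 and Platr22 outside with 2.01, followed by Lcn2, a secreted lipocalin at 273.5 CPM in IKK2-SE, 3.16 CPM in knockdown and 8.11 CPM in scramble cells, with 33.7.

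Genes with low levels in knockdown cells were frequent in the set. Of the 910 genes below 0.6 of scramble, 706 had at least 1 CPM in knockdown cells and 49 of these (6.94%) are in the set, while 85 of the 204 genes with less (41.7%) are. Turned round, a level in knockdown cells of at least 1.5 times IKK2-SE was found in 7 of the 706 genes and in 37 of the 204, including 9 with no count in either group. The 49 genes with at least 1 CPM had a median share regained of 42.0%, and the 85 with less had one of 3.73%. Similarly, the 54 genes below 5% of scramble in knockdown cells had a median share of 1.28% and a highest share of 46.3%, that of Tmem176a. The 37 genes at 25% of scramble or more had a median of 53.6% and a lowest share of 16.9%. The rule has a part in this: with at least 1.5 times knockdown required, the lowest share it allows rises with knockdown over scramble. The splits by knockdown level therefore cannot be read as a result about the genes.

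**Figure D2:**
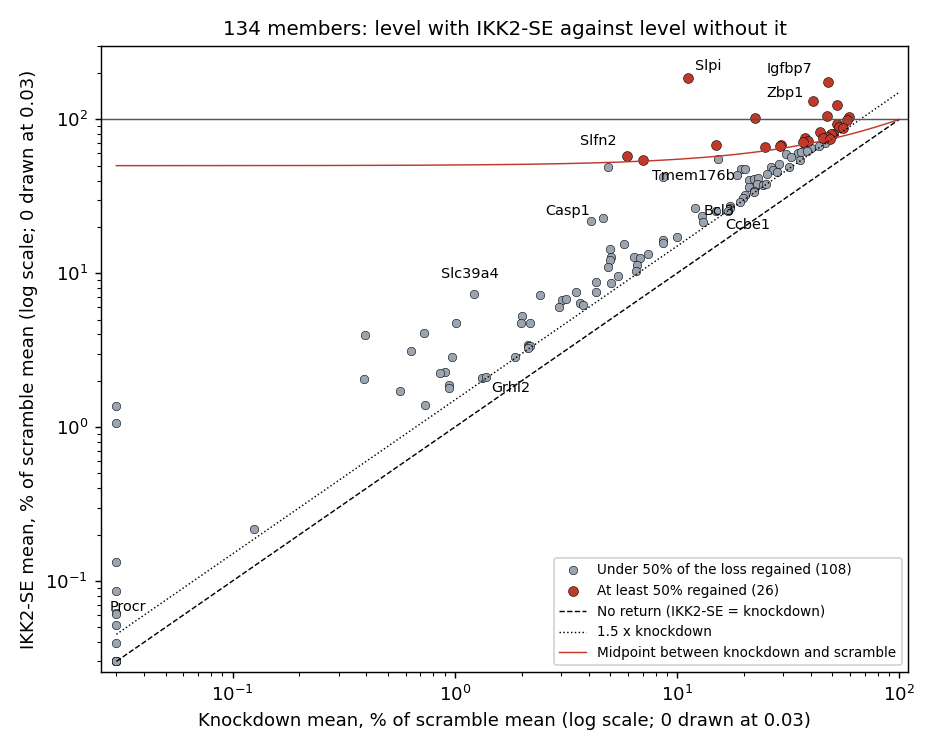
Mean level in IKK2-SE cells (y axis, % of the scramble mean, log scale) against mean level in knockdown cells (x axis, % of the scramble mean, log scale) for the 134 genes, with 0 drawn at 0.03. Red points are the 26 genes that regained at least 50% of the loss and grey points the other 108; the dashed, dotted and red lines mark no return, the threshold of 1.5 times knockdown and the midpoint between knockdown and scramble.

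Since all 3 group means entered the choice, the separation of the groups is a description. Every knockdown library lay below every scramble library in all 134 genes, as it did in 36.6% of all tested genes. Every IKK2-SE library lay above every knockdown library in 90 genes, as in 16.1% of tested genes, and the libraries overlapped in the other 44. Against scramble, every IKK2-SE library was lower in 121 genes (33.1% of tested genes), higher in 4 (27.9%) and overlapping in 9. By edgeR's call at an adjusted p below 0.05, 134 genes were lower in knockdown than in scramble cells (29.9% of tested genes), 81 were higher in IKK2-SE than in knockdown cells (5.61%) and 53 were not called. Against scramble, 126 were called in IKK2-SE cells (55.8%), 122 of them lower (28.7%) and 4 higher, and 8 were not.

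The choice was also made on 2 of the replicate numbers and read in the libraries it had not used. Without the libraries numbered 1, 137 genes were chosen, and 87 of them (63.5%) met all thresholds in the libraries left out. Without those numbered 2 the count was 83 of 148 (56.1%), and without those numbered 3 it was 87 of 142 (61.3%). In the libraries left out, IKK2-SE was above knockdown in 108, 113 and 110 of the genes chosen, and the median share regained was 8.73%, 6.30% and 9.72%. How many of all tested genes met the thresholds or had IKK2-SE above knockdown in those libraries was not counted. These counts can therefore not be set against a share over all tested genes. The counts that met all thresholds include genes with no reads in the IKK2-SE and knockdown libraries, of which the set holds 9. Such genes meet the threshold against knockdown whichever libraries are left out. The counts are therefore no measure of how often genes with reads met the rule again, which was not counted apart. With all chosen genes included, the share regained was low in the libraries left out as well.

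**Figure D3:**
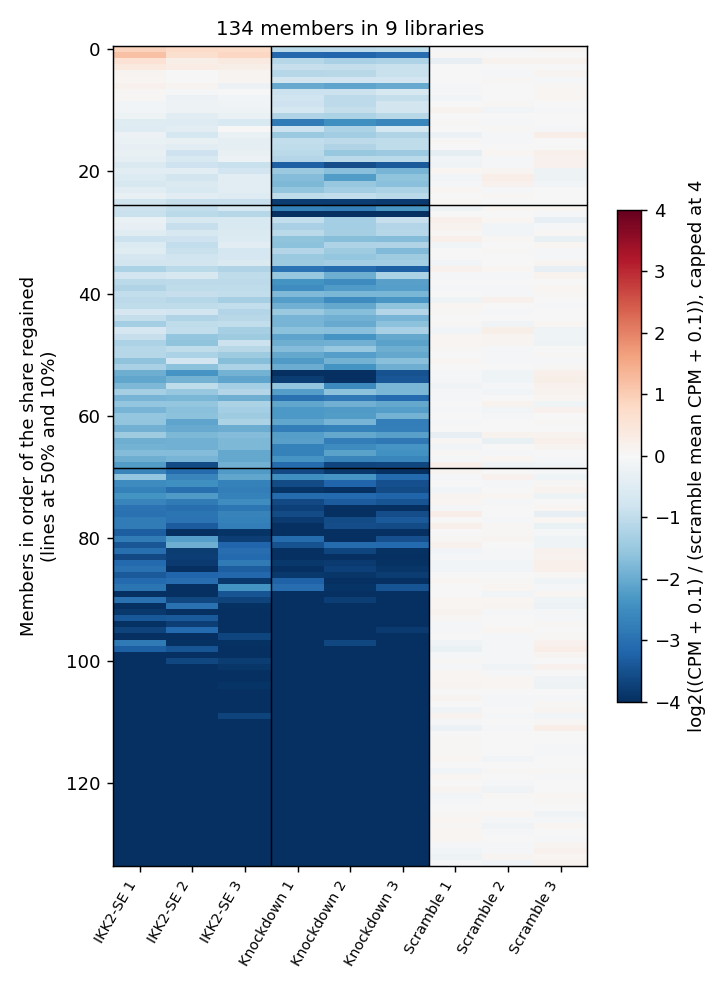
Level of the 134 genes (rows, by share regained, with lines at 50% and 10%) in the 3 IKK2-SE, 3 knockdown and 3 scramble libraries (columns). Colour is the log2 ratio to the scramble mean after adding 0.1 CPM, capped at 4 in each direction; below the lower line the IKK2-SE and knockdown columns are both dark blue.

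Of the 134 genes, 69 were given 1 of 9 roles from their known function, after their values had been seen. Among the 5 genes of innate signalling, the secreted inhibitor of neutrophil proteases Slpi was the farthest from knockdown. Slpi (chromosome 2, 164354070 to 164389095, minus strand, positions on GRCm38/mm10) had 56.6, 38.9 and 44.1 CPM in IKK2-SE libraries, 2.74, 2.70 and 2.92 CPM in knockdown libraries, and 25.7, 24.6 and 24.4 CPM in scramble libraries. The 3 groups did not overlap, and the IKK2-SE libraries were the highest and the widest spread. The log2 difference was 4.04 ± 0.13 between IKK2-SE and knockdown, -3.11 ± 0.13 between knockdown and scramble, and 0.92 ± 0.10 between IKK2-SE and scramble cells. Zc3h12a (chromosome 4, 125118423 to 125127840, minus strand), the ribonuclease Regnase-1 that degrades inflammatory messenger RNAs, had 25.2, 23.4 and 22.4 CPM with IKK2-SE, 10.2, 9.81 and 10.3 CPM in knockdown and 19.5, 19.1 and 19.0 CPM in scramble libraries. It too was highest with IKK2-SE in every library, and the share regained was 149.4%.

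The other 3 innate genes stayed far below scramble. Bcl3 (chromosome 7, 19808462 to 19822770, minus strand), an unusual IkB protein that acts with NF-kB p50 and p52 in the nucleus, had 3.15, 3.17 and 2.90 CPM with IKK2-SE, 1.37, 1.53 and 1.27 CPM in knockdown and 10.9, 11.7 and 12.1 CPM in scramble libraries. Its groups did not overlap, and its share regained was 16.5%. Casp1, the inflammasome protease that cleaves interleukin-1 beta, averaged 1.40 ± 0.24 CPM with IKK2-SE, 0.285 ± 0.15 CPM in knockdown and 6.14 ± 0.79 CPM in scramble cells (SD, n = 3 each), a share of 19.0%. Nod1, an intracellular sensor of bacterial peptidoglycan, regained 11.3%.

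The 5 genes placed in the interferon-inducible group, after their values had been seen, each regained at least 50%, with a median of 61.3%. Over the whole set 26 of the 134 genes did. The rule has a part in this, as the lowest share it allows rises with knockdown over scramble. Parp14, at 52.65% of scramble in knockdown cells, could not have been kept with less than 50%, while Slfn2 was at 5.96%. Of the 5, 3 are on the list of interferon-stimulated genes, and Casp1 and Cd74, which interferon also induces, stand under other roles with shares of 19.0% and 3.34%. Zbp1 (chromosome 2, 173206612 to 173218923, minus strand), a sensor of nucleic acids in the Z form, had 4.46, 3.45 and 3.78 CPM with IKK2-SE, 1.28, 1.15 and 1.20 CPM in knockdown and 2.31, 3.28 and 3.25 CPM in scramble libraries. The IKK2-SE libraries all lay above the scramble libraries, by a narrow margin, and the share was 154.8%. Parp14, an ADP-ribosyltransferase, had 34.2, 28.03 and 30.9 CPM with IKK2-SE, 19.2, 16.1 and 17.3 CPM in knockdown and 30.8, 34.0 and 35.3 CPM in scramble libraries. Its IKK2-SE and scramble libraries overlapped, and its share was 85.4%. Slfn2, a Schlafen family gene needed for T cells to stay quiescent, had 1.68, 1.39 and 1.31 CPM with IKK2-SE, 0.172, 0.125 and 0.157 CPM in knockdown and 2.28, 2.44 and 2.89 CPM in scramble libraries. Trim30d and the mitochondrial nucleotide kinase Cmpk2 regained 61.3% and 55.0%, and Trim30d has close copies among which reads may be split.

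**Figure D4:**
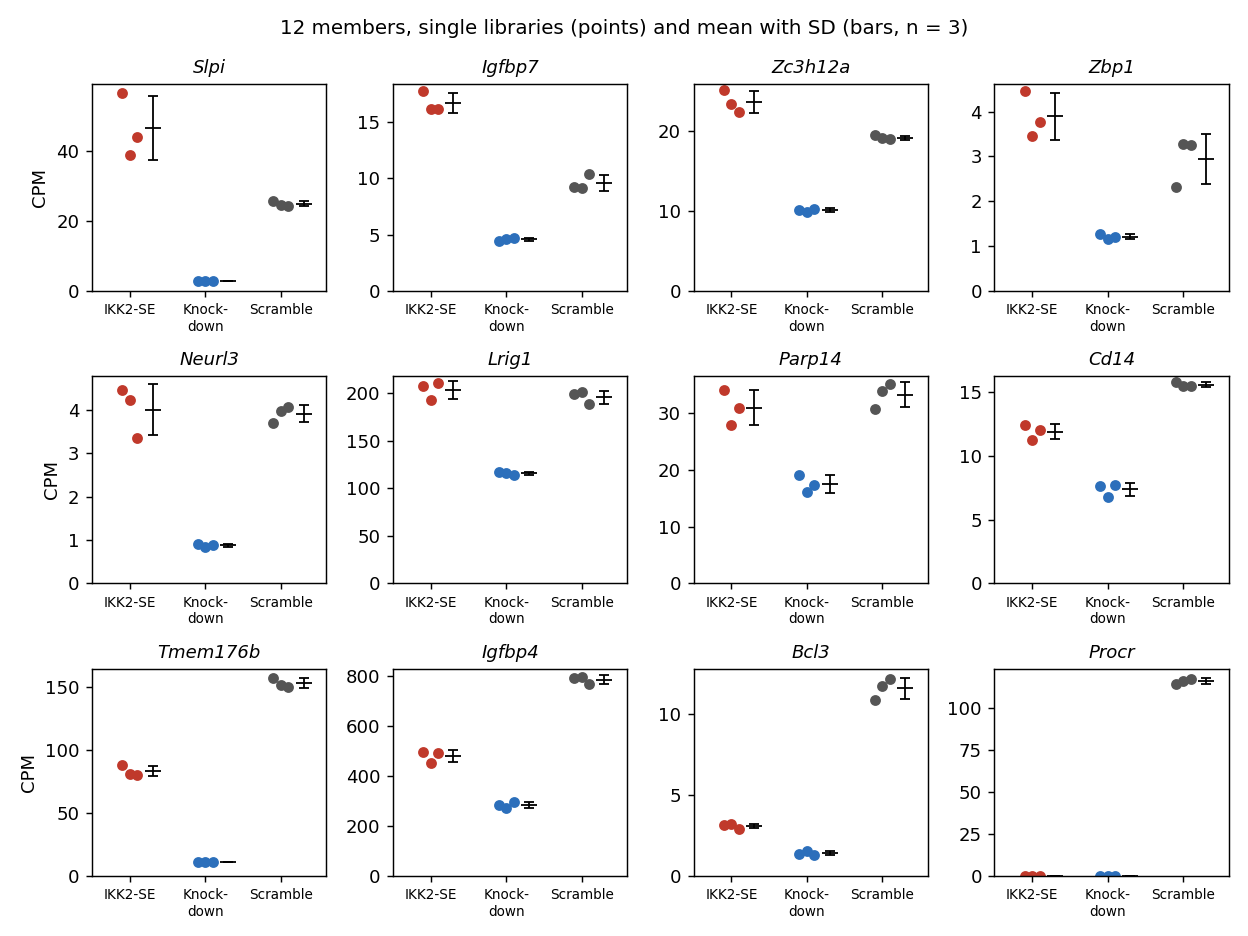
Level (CPM) of 12 genes in single libraries (points) with the mean and SD (bars, n = 3) for IKK2-SE, knockdown and scramble cells. Slpi, Igfbp7, Zc3h12a and Zbp1 are highest with IKK2-SE, Lrig1 and Neurl3 are near scramble, and Bcl3 and Procr stay far below it.

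Among 7 genes of the immune cell surface the share ranged from 1.31% to 62.7%. Mrc1 (chromosome 2, 14229392 to 14332057, plus strand), the macrophage mannose receptor, had 4.32, 4.26 and 3.92 CPM with IKK2-SE, 0.797, 1.03 and 0.915 CPM in knockdown and 6.35, 5.85 and 6.10 CPM in scramble libraries. Cd14, the co-receptor for bacterial lipopolysaccharide, had 12.4, 11.2 and 12.0 CPM, against 7.62, 6.76 and 7.73 CPM in knockdown and 15.8, 15.5 and 15.4 CPM in scramble libraries. In both genes IKK2-SE lay between the other groups without overlap, with shares of 62.7% and 55.4%. Both genes of antigen presentation were low: Cd74, the invariant chain of MHC class II, was at 1.27 ± 0.46 CPM with IKK2-SE, 0.727 ± 0.017 CPM in knockdown and 16.9 ± 0.56 CPM in scramble cells, and the lipid-presenting Cd1d1 regained 1.31%. Spn, the sialomucin CD43, and Cd93 regained 38.6% and 36.9%, and Clec2d, a ligand of natural killer receptors, 18.4%.

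Markers of macrophages were summed beside these. The 7 markers, of which Mrc1 and Cd14 are 2, summed to 38.9 to 41.7 CPM with IKK2-SE, 26.8 to 30.6 CPM in knockdown and 52.7 to 56.1 CPM in scramble libraries. Besides these 2, the lysozyme gene Lyz2 was at 20.2 CPM with IKK2-SE, 16.2 CPM in knockdown and 17.4 CPM in scramble cells, and the lysosomal Cd68 at 3.43 CPM, 4.12 CPM and 14.7 CPM in the same order of groups. Adgre1 was at 0.0093 CPM with IKK2-SE and at 0 in the other groups, Itgam at 0.0593, 0.0248 and 0.0216 CPM and Csf1r at 0.144, 0.191 and 0.0837 CPM in IKK2-SE, knockdown and scramble cells. Of the 5 markers tested, 3 were higher in IKK2-SE than in knockdown cells, as were 5.61% of all tested genes. In knockdown against scramble cells 3 were lower, as were 29.9%, and the others were not called. Mrc1 and Cd14 are among these calls and were chosen on these differences. Of the other 3 markers, 1 was higher with IKK2-SE and 1 lower in knockdown cells. Their median log2 difference between IKK2-SE and knockdown cells was -0.29. Whether the markers have a part in the levels of the immune surface genes was not tested. The 7 lymphocyte markers summed to at most 0.245 CPM with IKK2-SE, 0.15 CPM in knockdown and 0.311 CPM in scramble libraries. The 6 endothelial markers summed to 0.771 to 1.24 CPM, 0.34 to 0.638 CPM and 4.39 to 5.19 CPM in IKK2-SE, knockdown and scramble libraries, and Cldn5 was at 0 throughout. Cdh5, the vascular cadherin and 1 of the 134 genes, made up 0.636 CPM, 0.222 CPM and 4.43 CPM of these in the same order of groups.

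The 9 secreted and matrix genes ranged from 6.41% to 242.5%. Igfbp7 (chromosome 5, 77349240 to 77408041, minus strand), a secreted protein that binds insulin-like growth factors weakly, had 17.8, 16.2 and 16.2 CPM with IKK2-SE, 4.45, 4.63 and 4.67 CPM in knockdown and 9.21, 9.14 and 10.4 CPM in scramble libraries, the highest share of the set. Its IKK2-SE level was 0.82 ± 0.07 above scramble on the log2 scale. Emilin1, a glycoprotein of elastic fibres, had 4.30, 4.01 and 4.24 CPM with IKK2-SE, 1.74, 1.79 and 2.09 CPM in knockdown and 3.93, 3.71 and 4.25 CPM in scramble libraries, so that IKK2-SE overlapped scramble. Igfbp4 (chromosome 11, 99041244 to 99054392, plus strand), which binds and withholds insulin-like growth factors, was at 494.5, 452.4 and 490.9 CPM with IKK2-SE, 283.1, 269.9 and 296.0 CPM in knockdown and 792.5, 797.3 and 765.4 CPM in scramble libraries, a share of 39.1% with no overlap.

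The other 6 secreted and matrix genes regained 6.41% to 60.8%. C1s1, the C1s protease that starts the classical complement pathway, averaged 71.7 ± 2.96 CPM with IKK2-SE, 44.2 ± 1.17 CPM in knockdown and 89.4 ± 3.21 CPM in scramble cells, a share of 60.8%. Its copy C1s2, 82.3 kb away, regained 42.0%, and reads may be split between the 2. The crosslinking enzyme Tgm2 regained 23.6%. Ccbe1, a secreted protein needed for growth of lymphatic vessels, had 112.2, 106.4 and 107.6 CPM with IKK2-SE, 62.3, 64.8 and 64.3 CPM in knockdown and 419.4, 433.5 and 425.6 CPM in scramble libraries. Although each IKK2-SE library lay above each knockdown library, the share was 12.4%.

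Among 11 surface receptors and signalling genes, 4 regained at least 50% and 5 less than 10%. The rule has a part in this as well. Lrig1, Adgrg6 and Dgka, at 59.1%, 58.2% and 53.8% of scramble in knockdown cells, could not have been kept with less than 50%. Adgrf5 was at 29.5%. Lrig1 (chromosome 6, 94604529 to 94700158, minus strand), which restrains receptors of the EGF receptor family, had 207.5, 193.2 and 210.7 CPM with IKK2-SE, 117.3, 116.3 and 114.1 CPM in knockdown and 198.8, 200.9 and 188.3 CPM in scramble libraries. IKK2-SE overlapped scramble, and the log2 difference from knockdown was 0.79 ± 0.04. Adgrg6, an adhesion G protein-coupled receptor needed for myelination by Schwann cells, regained 96.2%, at 24.6 ± 1.11 CPM with IKK2-SE, 14.6 ± 1.38 CPM in knockdown and 25.03 ± 1.26 CPM in scramble cells. Dgka, a kinase that converts diacylglycerol to phosphatidic acid, regained 77.7%, the adhesion receptor Adgrf5 54.5% and the zinc receptor Gpr39 42.0%.

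The other receptors and signalling genes were far below scramble in both hairpin groups. Procr (chromosome 2, 155751117 to 155755471, plus strand), the endothelial protein C receptor, had 0.0662, 0.0841 and 0.0288 CPM with IKK2-SE, 0.0245, 0.0250 and 0 CPM in knockdown and 114.3, 116.0 and 117.6 CPM in scramble libraries. These are 13 counts with IKK2-SE and 4 in knockdown cells, and the share regained was 0.037%. Nkd1, which restrains Wnt signalling at Dishevelled, had 3 counts with IKK2-SE, all in 1 library, none in knockdown and 7804 in scramble cells. Knockdown was at least 2883-fold lower than scramble, taken against 3 counts over the group. Plcg2, a phospholipase C of immune receptor signalling, was at 0.628 ± 0.16 CPM, 0.402 ± 0.079 CPM and 18.6 ± 0.68 CPM in IKK2-SE, knockdown and scramble cells.

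Transcription factors, transporters, neuronal and cytoskeletal genes had median shares of 12.2%, 12.0%, 6.72% and 7.41%, against 10.8% over all 134 genes. Pou2f2, the octamer factor Oct-2 of B cells, had 1.85, 1.96 and 2.16 CPM with IKK2-SE, 0.773, 0.963 and 0.85 CPM in knockdown and 2.80, 3.34 and 2.72 CPM in scramble libraries, a share of 54.1%. Both epithelial factors stayed low: Grhl2 (chromosome 15, 37233036 to 37363569, plus strand) had 1.01, 0.715 and 0.562 CPM with IKK2-SE, 0.478, 0.701 and 0.262 CPM in knockdown and 37.5, 36.9 and 34.6 CPM in scramble libraries, and Elf3 regained 6.39%. The IKK2-SE and knockdown libraries of Grhl2 overlapped. The iron transporter Slc11a2 regained 51.1%, at 24.0 ± 1.93 CPM, 15.6 ± 0.60 CPM and 32.0 ± 0.88 CPM in IKK2-SE, knockdown and scramble cells. The zinc importer Slc39a4 had 4.75, 2.72 and 3.03 CPM with IKK2-SE, 0.503, 0.751 and 0.484 CPM in knockdown and 47.6, 49.1 and 46.2 CPM in scramble libraries. It was separated from knockdown by 2.57 ± 0.23 on the log2 scale and had regained 6.21% of the loss, an example of how far the ratio and the share can part. None of the 9 neuronal and 8 cytoskeletal or adhesion genes reached 50%, and the highest were the tensin gene Tns4 with 35.1% and the actin-binding gene Ablim1 with 31.2%.

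**Figure D5:**
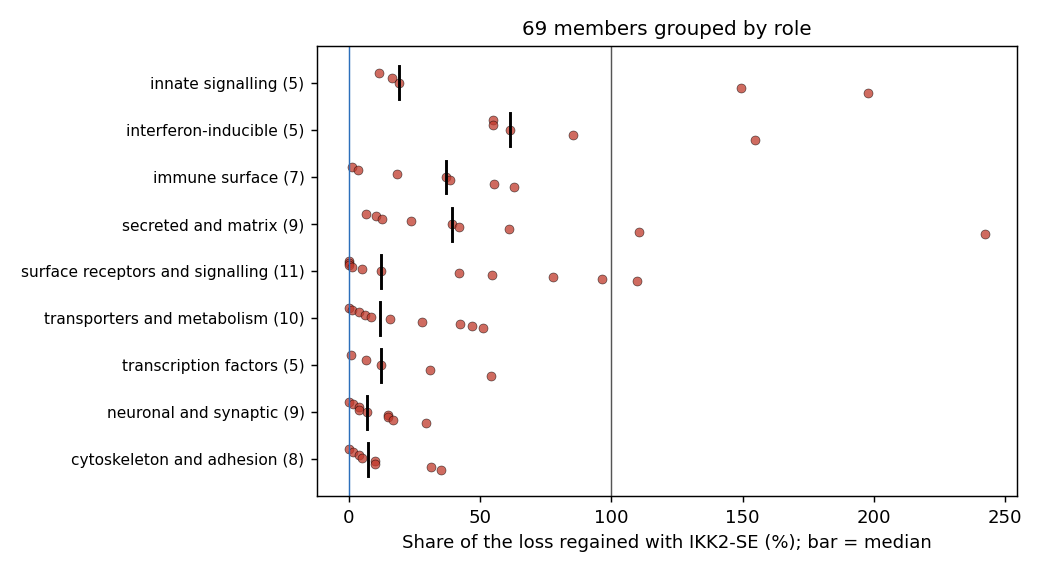
Share of the loss regained (x axis, %) of the 69 genes given a role (points), by role (rows), with the median as a bar. The vertical lines mark 0%, the knockdown mean, and 100%, the scramble mean; the 5 genes placed in the interferon-inducible group after their values had been seen lie above 50%, while Casp1 and Cd74, placed under other roles, lie at 19.0% and 3.34%.

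Of the 65 genes given no role, 8 regained at least 50% and 39 less than 10%. Neurl3 (chromosome 1, 36264597 to 36274679, minus strand), an E3 ubiquitin ligase, had 4.45, 4.22 and 3.34 CPM with IKK2-SE, 0.895, 0.838 and 0.889 CPM in knockdown and 3.70, 3.98 and 4.06 CPM in scramble libraries. The IKK2-SE libraries overlapped scramble, and the share was 103.1%. Tmem176b (chromosome 6, 48833818 to 48841496, minus strand), a membrane protein of a family related to MS4A, had 87.7, 81.0 and 80.1 CPM with IKK2-SE, 10.8, 10.8 and 10.8 CPM in knockdown and 157.0, 151.6 and 150.1 CPM in scramble libraries. Its neighbour Tmem176a had 53.2, 46.4 and 45.1 CPM with IKK2-SE, 4.70, 4.83 and 4.97 CPM in knockdown and 100.6, 99.8 and 95.5 CPM in scramble libraries. Both lay near the middle between the other groups without overlap, with shares of 50.8% and 46.3%. They share exon bases, and without a stated strand setting reads in the overlap cannot be told apart. Plscr2, of the phospholipid scramblase family, regained 68.4%, and Phlda1 34.3%, at 60.5 ± 4.49 CPM, 25.7 ± 2.40 CPM and 127.5 ± 6.90 CPM in IKK2-SE, knockdown and scramble cells.

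In 16 genes the knockdown libraries held no count at all. For 9 of them, among which are Tysnd1, Tmtc2, Xlr4b, Ckb, Rai14, Olfr78, Rxfp1 and Nrbp2, the IKK2-SE libraries held none either, and they entered the set only because 0 is not less than 1.5 times 0. Tysnd1, a peroxisomal protease, had 11.8, 12.0 and 10.2 CPM in scramble libraries, or 2427 counts, so that IKK2-SE was at least 815-fold lower and knockdown at least 896-fold lower, against 3 counts over the group. The brain creatine kinase gene Ckb had 1521 counts in scramble cells. The other 7, Nkd1, Gypc, Dnah7a, Spinkl, Pomgnt2, Armc2 and Zmym6, had 1 to 8 counts over the 3 IKK2-SE libraries. No IKK2-SE level of these 16 genes can be told from 0 by more than a few reads.

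The genes lay on all autosomes and the X chromosome, and 133 with a single position made up 1.34% of the 9920 genes with at least 2 CPM in scramble cells. There were 15 on chromosome 6 (3.15% of its 477 such genes), 8 on chromosome 18 (3.05% of 262), 13 on chromosome 10 (2.64% of 493), 13 on chromosome 7 (1.73% of 751) and 2 on chromosome 17 (0.415% of 482). The closest neighbouring pairs were Igfbp4 and Tns4, 11.3 kb apart with shares of 39.1% and 35.1%, Bcl3 and Ceacam16, 29.3 kb apart with 16.5% and 4.36%, and the C1s and Tmem176 pairs. Farther apart were Dnah7a and Hecw2 (100.1 kb, 0.133% and 35.7%) and Tcn2 and Sec14l2 (164.9 kb, 6.41% and 1.40%). So were Gimap8 and Tmem176b (172.9 kb, 2.52% and 50.8%) and Sord and Sqor (499.9 kb, 1.13% and 3.74%). For each gene the median log2 difference of 20 tested genes on either side was taken. Between knockdown and scramble cells it was -0.3 or lower for 12 of 133 genes (9.02%), against 5.89% of 16231 tested genes, and between IKK2-SE and knockdown cells it lay between -0.08 and 0.15 for all 133. Exon bases were shared with another annotated gene in 41 of the 133 genes with a single position, all of them protein coding.

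Known NF-kB targets were read from a list of 84 genes. Like the other lists, it was drawn up with earlier results of these data known, so counts on it are a description. Of the 84 genes 71 were tested and 3, Slpi, Zc3h12a and Bcl3, are in the set. A further 10 passed the 4 thresholds and were left out by name: Nfkbia, Traf1, Ccl2, Ccl5, Cxcl3, Cxcl5, Cxcl10, Mmp9, Tlr2 and Vegfc. In IKK2-SE against knockdown cells 44 of the 71 targets rose, 5 fell and 22 were not called, where 5.61% of all tested genes rose and 4.82% fell, with a median of 0.53 on the log2 scale against 0.00058 over all tested genes. In knockdown against scramble cells 9 rose, 46 fell and 16 were not called, where 27.7% of all tested genes rose and 29.9% fell, with a median of -0.45 against -0.0015. In IKK2-SE against scramble cells 32 were higher and 29 lower, on either side of the scramble level, where 55.8% of all tested genes were called. Among the 58 targets that did not meet the 4 thresholds, 31 rose, 5 fell and 22 were not called in IKK2-SE against knockdown cells, with a median of 0.29, and 9 rose, 33 fell and 16 were not called in knockdown against scramble cells, with a median of -0.35. The neutrophil-attracting chemokine Cxcl3 was at 102.9 ± 7.79 CPM with IKK2-SE, 7.85 ± 0.67 CPM in knockdown and 54.8 ± 3.42 CPM in scramble cells, higher than knockdown by 3.69 ± 0.07, and Cxcl5 by 3.68 ± 0.08. Both met the thresholds, so their differences have no p. Cxcl1, which did not meet them, rose by 3.31 ± 0.07 (edgeR adjusted p = 9.09e-15). The NF-kB inhibitor gene Nfkbia was at 109.8 ± 1.70 CPM with IKK2-SE, 43.5 ± 0.072 CPM in knockdown and 224.6 ± 5.22 CPM in scramble cells, a log2 difference of 1.31 ± 0.04 from knockdown and of -1.01 ± 0.03 from scramble, also without p.

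Of 39 tested interferon-stimulated genes, of which Zbp1, Parp14 and Cmpk2 are in the set, 28 rose, 1 fell and 10 were not called in IKK2-SE against knockdown cells, with a median of 0.33, where 5.61% of all tested genes rose and 4.82% fell. In knockdown against scramble cells 7 rose, 20 fell and 12 were not called, where 27.7% of all tested genes rose and 29.9% fell. Without the 3 genes of the set, 25 rose, 1 fell and 10 were not called in IKK2-SE against knockdown cells. Ifih1, the RNA sensor MDA5, was at 29.4 ± 1.96 CPM with IKK2-SE, 21.1 ± 1.25 CPM in knockdown and 29.99 ± 1.63 CPM in scramble cells, while Ifit3, which binds viral RNA, was at 6.71 ± 0.29 CPM, 3.39 ± 0.25 CPM and 3.16 ± 0.69 CPM. Ifih1 rose with IKK2-SE by 0.45 ± 0.06 (edgeR adjusted p = 0.000134) and Ifit3 by 0.96 ± 0.13 (edgeR adjusted p = 9.4e-05). The 1 gene that fell was Isg20, at 61.2 ± 4.46 CPM with IKK2-SE, 84.55 ± 1.13 CPM in knockdown and 83.35 ± 3.84 CPM in scramble cells. Its log2 difference between IKK2-SE and knockdown cells was -0.49 ± 0.05 (edgeR adjusted p = 8.55e-06), the smallest adjusted p of this list outside the set. Of 36 NF-kB pathway components none is in the set. In IKK2-SE against knockdown cells 7 of them rose, 1 fell and 28 were not called, against the same 5.61% and 4.82% of all tested genes. Without Traf5, which met the thresholds and was left out by name, 6 rose, and the receptor gene Tnfrsf1b rose by 0.50 ± 0.07 (edgeR adjusted p = 0.000156). Ikbkb, the mouse gene for IKK2, was at 47.3, 48.8 and 49.9 CPM with IKK2-SE, 43.0, 43.8 and 43.8 CPM in knockdown and 47.3, 46.6 and 51.6 CPM in scramble libraries, a difference of 0.13 ± 0.05 between IKK2-SE and knockdown cells that did not pass (edgeR adjusted p = 0.0809).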

How the data were processed

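Messenger RNA of 9 cultures was sequenced, and the authors deposited 1 table of raw counts, a whole number per gene and library with no normalization. FastQC, MultiQC, STAR and mm10 are named in the submitters' processing notes. Not given in the sources used here are the counter, the annotation and the use of strand. Columns were matched to libraries by arm and replicate number. Replicates of 1 group differed by more than sampling noise (chi-square divided by its degrees of freedom between 3.85 and 20.8).

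CPM are counts over library totals. Fold changes and tests are from edgeR 4.0.16 in R 4.3.3 (TMM, quasi-likelihood with robust spread, all 9 libraries, group only, 6 residual degrees of freedom) on 16766 genes kept by a minimum count of 10 and total of 15, adjusted by Benjamini-Hochberg and called at 0.05. The procedure was tested on simulated data. DESeq2 1.42.0, other scalings, filters, thresholds, a replicate block and left-out libraries were alternatives.

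The genes and lists were chosen with earlier results of these data known. As all 3 contrasts chose the genes, their differences are given without p. Genes named by rule were the 10 lowest in knockdown over scramble, 10 highest in IKK2-SE over knockdown, 10 highest in scramble, 10 with IKK2-SE nearest scramble (from 10 CPM), the 5 highest and 5 lowest in IKK2-SE over scramble, those on a list, and those next to a threshold, with ties going to the higher scramble CPM. Others, the roles and the count with the ratio turned round were chosen after values were seen. Outside the set, Eya3, Ikbkb and at most 4 genes a list were named. Positions are from GENCODE M21.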

Additional observations from a re-analysis of the deposited data

How the results depend on the processing

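The number of genes chosen was 121 with TMM-scaled CPM, all among the 134, 188 with a scramble minimum of 1 CPM and 90 when libraries had to be free of overlap. It fell to 76 with a minimum of 5 CPM and to 62 with at most 0.5 of scramble and at least 2 times knockdown, and ran from 134 to 148 with 1 or more libraries left out. The median share regained was 9.66% with TMM-scaled CPM and 8.37% to 14.6% with 1 library left out. Of 4422 fold changes recomputed under alternatives, 4295 moved by less than their spread, 127 by more, and none changed sign among the called ones. Calls between IKK2-SE and knockdown numbered 1749, with 941 higher (53.8%), or 1160 of 1759 (65.9%) with library totals as the scaling, and ran from 1168 to 1800 with 1 library left out. Called NF-kB targets ran from 42 to 46 higher in IKK2-SE and from 43 to 49 lower in knockdown cells over all alternatives (43 to 44 and 43 to 47 with 1 library left out). The whole 300-base window held a kB match in 7 genes in place of 6.

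With the replicate number as a block, calls between IKK2-SE and knockdown numbered 2678. Deviations from the group means correlated at -0.011 to 0.123 between libraries of the same number. Between libraries of different numbers the correlations ran from -0.081 to 0.046. The highest was that of the IKK2-SE and knockdown libraries numbered 1. The labels do not say whether libraries of the same number were handled together. Depth limits part of the 85 genes under 1 CPM in knockdown cells. The ratio of Procr rests on 13 counts with IKK2-SE and 4 in knockdown cells, that of Mrc1 on 902 and 217.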

Other observations

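The 53 genes that met the 4 thresholds and were left out by name had a median share regained of 13.4%, and 13 of them regained at least 50%. The stromelysin Mmp10 was at 14.0 CPM with IKK2-SE, 4.42 CPM in knockdown and 8.07 CPM in scramble cells, a share of 262.8%. The lymphocyte-attracting chemokine Ccl5 regained 198.9%, the extracellular matrix gene Ltbp2 108.7% and the innate receptor Tlr2 98.1%. The monocyte-attracting chemokine Ccl2 was at 34.1 CPM, 0.322 CPM and 52.5 CPM in IKK2-SE, knockdown and scramble cells, a share of 64.8%. At the low end, Traf1 regained 6.29%, the axon guidance gene Ntn1 6.22%, the lymphangiogenic factor Vegfc 6.16% and Lgr6, a receptor for R-spondins, 1.89%. These genes were chosen after their values were seen, and their values chose them for the 53.

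Gm15663, which is left out by name and shares exon bases with Tmtc2, was at 2.31 CPM in scramble cells and, like Tmtc2, had no count in the IKK2-SE and knockdown libraries.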
